A study of Homo sapiens with 9 samples.

Results

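The receptor tyrosine kinases of the FGF, HGF and PDGF systems were examined in SNU-398 hepatoma cells, together with a liver FGF hormone, its co-receptor and the ligand of MET. These were 10 genes taken by name from a count table of 60642 gene names: FGFR1, FGFR2, FGFR3, FGFR4, MET, PDGFRA and PDGFRB, which are 7 receptors, FGF19 and HGF, which are ligands, and the co-receptor KLB. The filter on low counts was passed by 8 of them and not by KLB and HGF. SNU-398 is a hepatocellular carcinoma (HCC) cell line described as mesenchymal-like, and the study overexpressed forms of EMX1, a homeobox transcription factor, in it to learn what each form does in HCC. RNA-seq was made from 3 libraries of the vector control, 3 of cells with the full-length form, EMX1-FL, and 3 of cells with EMX1-X1, a splice form whose alternative last exon changes the C-terminal end and interrupts the homeodomain. Every group, controls included, was of wild-type SNU-398 cells transduced with lentivirus and selected for puromycin resistance, so the groups model stable overexpression in selected cells of a single line. The labels number the libraries but do not say whether they came from separate transductions or cultures, so the p-values measure the spread between these libraries, which may be technical.

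FGF receptors are cell-surface kinases that bind FGFs together with heparan sulfate and pass the signal through the RAS-ERK and PI3K pathways. In the liver, FGF19, a hormone released by the intestine after a meal, binds FGFR4 with its co-receptor KLB (beta-klotho) on hepatocytes and represses bile acid synthesis, and tumors with extra copies of FGF19 can grow on this signal. MET binds HGF, which stromal cells secrete and which drives scattering and invasion of epithelial cells, whereas PDGFRA and PDGFRB are receptors of mesenchymal cells, including the hepatic stellate cells. Inhibitors given for HCC, such as lenvatinib, sorafenib, regorafenib and cabozantinib, hit several of these kinases.

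Between 21562703 and 25197970 read pairs were counted per library. EMX1 was at 218 to 313 counts in the vector control libraries, 3145 to 5660 in the EMX1-FL libraries and 3479 to 7133 in the EMX1-X1 libraries, so EMX1 was overexpressed in every library labelled for it. Counts by gene name do not separate the forms, so which form each library carried was not checked. On the first principal component (39.6% of the variance) vector control 1 and 2, EMX1-FL 2 and 3 and EMX1-X1 1 lay apart from the remaining 4 libraries. These sets, called cluster A and cluster B here, come from the counts and not from a label, and cross the 3 groups. Of the hepatocyte markers, 2 of 9 were at 0 in every library and ALB was the highest with a mean of 1.31 TPM (a level corrected for transcript length and library size), while the mesenchymal marker VIM was at 863 TPM and the collagen-associated LUM, a fibroblast marker, at 706 TPM. The defining hepatocyte markers were therefore near 0 in cells labelled as hepatocellular carcinoma. GPC3 and EPCAM, the highest of 5 oncofetal markers of HCC, were at 19.3 and 6.06 TPM. The next highest of these, IGF2, was at 0.0696 TPM, and 1 of the 5 was at 0 in every library. Of 5 epithelial markers, CDH1 and CLDN4 were the highest at 1.64 and 1.54 TPM. KRT8 followed at 0.0073 TPM, and 1 of the 5 was at 0 in every library. The 9 hepatocyte markers summed to 0.569 to 1.06 TPM in the vector control, 1.93 to 3.80 TPM in EMX1-FL and 1.16 to 2.63 TPM in EMX1-X1, and ALB, the 1 of them tested, was higher in EMX1-FL and EMX1-X1 by log2 fold changes of 1.46 (edgeR adjusted p = 0.468) and 1.11 (edgeR adjusted p = 0.576). Summed endothelial markers stayed at or below 0.353 TPM and summed leukocyte markers at or below 0.452 TPM.

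The FGF receptors were the most abundant of the 10 genes, and FGFR4 led. On the TPM scale, which allows levels to be compared between genes, FGFR4 had a mean of 52.1 over the 9 libraries (37.6 to 76.3), followed by FGFR1 at 28.7 (23.0 to 36.3), FGFR3 at 14.3 (7.98 to 24.7) and FGFR2 at 5.38 (3.19 to 7.52). Each of these was above the next in 9 of 9 libraries, although the ranges of FGFR1 and FGFR3 overlapped. FGF19 followed at a mean of 1.80 TPM (0.699 to 2.96). MET was at 0.931 TPM (0.495 to 1.71), PDGFRA at 0.836 TPM (0.507 to 1.34) and PDGFRB at 0.534 TPM (0.329 to 0.829). The neighbours at this level were not set apart beyond their spread: FGF19 was above MET in 7 of 9 libraries and MET above PDGFRA in 5 of 9. KLB had a mean of 0.205 TPM and HGF of 0.0162 TPM, the lowest of the 10. The level of FGFR4 was above that of 80.7% of the 18574 genes tested, and the level of MET above 9.11% of them.

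**Figure D1:**
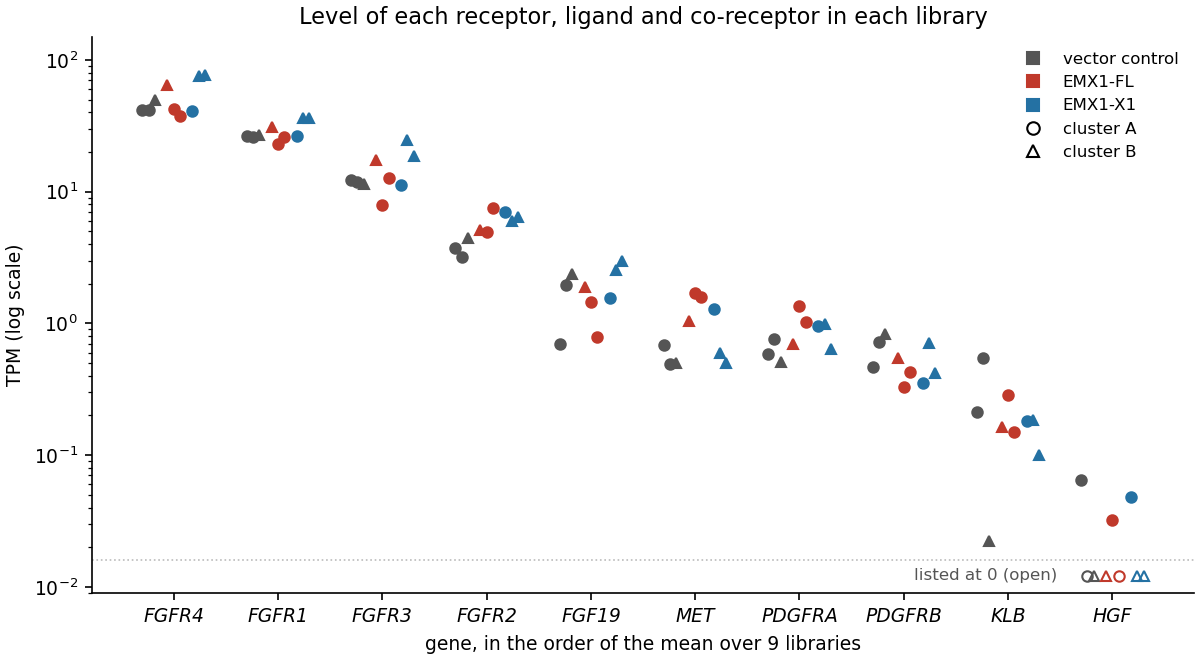
TPM of each of the 10 genes in each of the 9 libraries, on a log axis, with color for the group and symbol for the library cluster. Open symbols below the dotted line are libraries in which HGF was listed at 0. FGFR4 lies between 37.6 and 76.3 TPM, and MET, PDGFRA and PDGFRB lie at or below 1.71 TPM.

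FGFR4 was the main FGF receptor transcript in each group. Of the summed TPM of FGFR1 to FGFR4, FGFR4 took 51.0% ± 2.17 (SD, n = 3) in the vector control, 51.2% ± 5.41 in EMX1-FL and 52.1% ± 3.74 in EMX1-X1. FGFR1 took 30.8% ± 1.24, 28.9% ± 2.37 and 27.5% ± 2.81 in the same order, and FGFR3 13.8% ± 1.26, 13.4% ± 2.72 and 14.7% ± 2.31. FGFR2 was the minor receptor, with 4.39% ± 0.489, 6.56% ± 2.34 and 5.68% ± 2.15. These shares are descriptions and were not tested.

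Among the FGF receptors, FGFR2, a receptor with isoforms of epithelial and mesenchymal cells, was higher in both overexpression groups, by less than the fold threshold of the study. The gene lies at chr10:121478334-121598458 in GRCh38, on the minus strand. In CPM (counts scaled to TMM-normalized library sizes) FGFR2 was at 7.67, 6.76 and 10.3 in vector control 1, 2 and 3, at 10.6, 10.2 and 14.7 in the EMX1-FL libraries, and at 14, 12 and 13.1 in the EMX1-X1 libraries. Each EMX1-X1 library was above every vector control library, while 1 EMX1-FL library lay just below vector control 3. The log2 fold change was 0.66 ± 0.23 (SE) for EMX1-X1 versus vector control (95% interval 0.17 to 1.15, edgeR adjusted p = 0.538) and 0.51 ± 0.23 for EMX1-FL (0.02 to 1.01, edgeR adjusted p = 0.841). Both comparisons use the same vector control libraries and are not independent. EMX1-FL and EMX1-X1 differed by -0.14 ± 0.22 (95% interval -0.63 to 0.34). Within cluster A the differences of mean log2 CPM from the vector control were 0.76 (EMX1-FL) and 0.95 (EMX1-X1), while in cluster B they were 0.03 and 0.28.

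The more abundant FGF receptors did not pass the test in any comparison, and their fold changes had intervals that included 0. FGFR4, the FGF19 receptor of hepatocytes, was at 53.5, 55.9 and 72.7 CPM in the vector control libraries, at 84.8, 54.5 and 46.6 CPM in the EMX1-FL libraries and at 52.4, 95 and 98.8 CPM in the EMX1-X1 libraries. In each group the high libraries were those of cluster B. The log2 fold change of FGFR4 was 0.03 ± 0.28 for EMX1-FL versus vector control (95% interval -0.58 to 0.64), 0.44 ± 0.28 for EMX1-X1 (-0.18 to 1.05) and -0.41 ± 0.28 for EMX1-FL versus EMX1-X1 (-1.02 to 0.21). FGFR3, whose activating mutations are known from bladder cancer and skeletal dysplasia, was at 16 to 16.9 CPM in the vector control, 10.4 to 23.0 CPM in EMX1-FL and 14.4 to 31.4 CPM in EMX1-X1. Its log2 fold changes were 0.00 ± 0.31, 0.52 ± 0.31 and -0.52 ± 0.31 in the same order of comparisons. FGFR1, which serves many mesenchymal tissues, ranged from 85.5 to 135 CPM over the 9 libraries, with log2 fold changes of -0.09 ± 0.19, 0.21 ± 0.19 and -0.30 ± 0.19. Overlapping genes, LETM2 among them, cover 2.12% of its exon bases. For these receptors the spread between libraries of a group was as large as the difference between groups.

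MET was the 1 gene of the 8 tested that passed the threshold of the study (unadjusted p under 0.05 and a log2 fold change beyond 1 in either direction), and it did so in EMX1-FL versus vector control, where 2.42% of all genes tested passed. The gene lies at chr7:116672196-116798386 in GRCh38, on the plus strand. It was counted 31, 23 and 27 times in the vector control libraries, 46, 79 and 64 times in the EMX1-FL libraries and 59, 27 and 24 times in the EMX1-X1 libraries. In CPM these were 1.33, 1.00 and 1.11 for the vector control, 2.04, 3.33 and 2.96 for EMX1-FL, and 2.45, 1.12 and 0.969 for EMX1-X1. Every EMX1-FL library was above every vector control library, whereas in EMX1-X1 only the first library was, and the other 2 lay at the level of the controls. MET was also the 1 gene of the 8 whose groups did not overlap here, as was the case for 10.5% of all genes tested. The log2 fold change was 1.27 ± 0.39 (SE; 95% interval 0.41 to 2.13), a 2.41-fold difference, with an edgeR adjusted p of 0.472 over all genes tested. The exact permutation test of 3 libraries against 3 gave p = 0.1, the smallest it can give.

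With the p adjusted, at 0.05 and the same fold threshold, edgeR called 0 of the 8 genes in each of the 3 comparisons, against 0.07% of all genes in EMX1-FL versus vector control and 0.00538% in EMX1-X1 versus vector control, and DESeq2 and limma called 0 of the 8 as well. At an unadjusted p under 0.05, edgeR called 2 (MET and FGFR2), 1 (FGFR2) and 1 (MET) of the 8 in EMX1-FL versus vector control, EMX1-X1 versus vector control and EMX1-FL versus EMX1-X1, where 5.8%, 8.11% and 7.63% of all genes were called. In EMX1-X1 versus vector control 0 of the 8 passed the threshold of the study (2.5% of all genes did) and the groups did not overlap for 1, FGFR2 (14.7% of all genes). In EMX1-FL versus EMX1-X1 0 of the 8 passed it (1.42% of all genes) and 0 had groups that did not overlap (8.38% of all genes). The median log2 fold change of the 8 genes was 0.02, 0.39 and -0.24 in the 3 comparisons, beside 0.04, 0.01 and 0.02 over all genes tested.

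The fold change of MET between EMX1-FL and EMX1-X1 was 0.87 ± 0.39 (95% interval 0.03 to 1.71, edgeR adjusted p = 0.611), and that of EMX1-X1 versus vector control was 0.40 ± 0.40 (-0.47 to 1.27, edgeR adjusted p = 0.775). The first EMX1-X1 library, of cluster A, set the size of both: without it, MET differed by 1.40 between EMX1-FL and EMX1-X1 (edgeR adjusted p = 0.143) and by -0.13 between EMX1-X1 and vector control. Within cluster A, the log2 CPM of MET minus that of the vector control was 1.38 (EMX1-FL) and 1.03 (EMX1-X1), while in cluster B these were 0.83 and -0.09. With log2(TPM + 1) values and limma the difference of MET between EMX1-FL and vector control was 0.64, under the fold threshold, on a scale that understates the change of genes at such low levels.

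HGF, the ligand of MET, was near the detection limit. It was counted 4 times in vector control 1, 2 times in EMX1-FL 2, 3 times in EMX1-X1 1 and not at all in the other 6 libraries, where a count of 0 allows up to 3 counts, or 0.119 to 0.139 CPM of the unnormalized library sizes. These limits cover counting error only. The libraries therefore held MET transcripts with almost none of its ligand, in all 3 groups. A list of 10 genes held activators and inhibitors of HGF, the related MST1R system, and PLXNB1 with its ligand SEMA4D. Of these 10, 5 were tested and 0 passed the threshold in any comparison, where 2.42%, 2.5% and 1.42% of all genes did. The highest of the 10 were PLXNB1, a plexin that can associate with MET, at a mean of 7.30 TPM, MST1, the ligand of MST1R, at 5.92 TPM, and SEMA4D at 3.65 TPM. PLXNB1 alone of the 5 had an unadjusted edgeR p under 0.05 in EMX1-X1 versus vector control (8.11% of all genes did). It was higher there by 0.28 in cluster A and 0.80 in cluster B. In the remaining comparisons 0 of the 5 had such a p (5.8% and 7.63% of all genes).

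**Figure D2:**
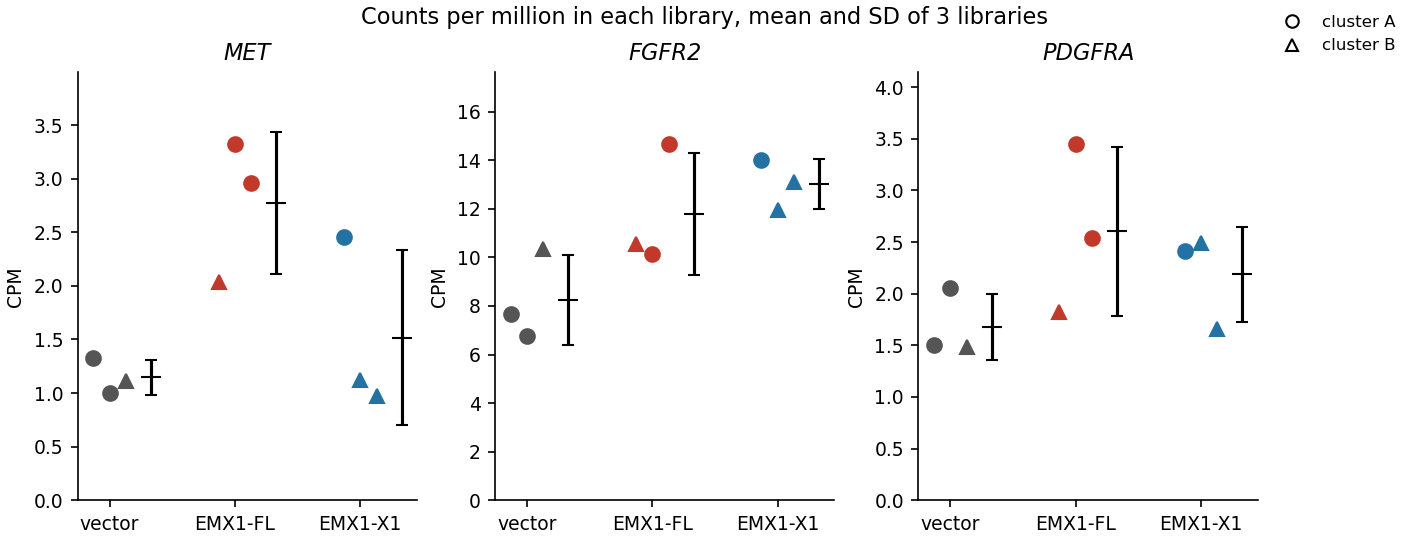
CPM of MET, FGFR2 and PDGFRA in each library by group, with circles for cluster A and triangles for cluster B; the bar beside each group is the mean ± SD of 3 libraries, and the axes start at 0. MET is at 1.00 to 1.33 CPM in the vector control and 2.04 to 3.33 CPM in EMX1-FL, and in EMX1-X1 the library of cluster A stands above the other 2.

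The promoters of MET and FGFR2, the genes with an unadjusted p under 0.05, are shown beside that of PDGFRA because the overexpressed factor is a homeodomain protein, and proteins of this class bind sites built on TAAT. The sequences are the 250 bases before the RefSeq start nearest to the 5′ end of the gene in the count table, on the gene's strand, with each TAAT on either strand (TAAT or ATTA) in capitals. MET lies on the plus strand at chr7:116671946-116672195, FGFR2 on the minus strand at chr10:121598445-121598694 and PDGFRA on the plus strand at chr4:54229043-54229292, all in GRCh38.p14.
MET: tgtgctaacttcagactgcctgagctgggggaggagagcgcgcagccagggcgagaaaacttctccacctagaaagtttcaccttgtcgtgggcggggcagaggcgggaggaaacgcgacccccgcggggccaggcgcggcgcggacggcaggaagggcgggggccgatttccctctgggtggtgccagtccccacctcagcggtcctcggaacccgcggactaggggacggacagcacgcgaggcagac
FGFR2: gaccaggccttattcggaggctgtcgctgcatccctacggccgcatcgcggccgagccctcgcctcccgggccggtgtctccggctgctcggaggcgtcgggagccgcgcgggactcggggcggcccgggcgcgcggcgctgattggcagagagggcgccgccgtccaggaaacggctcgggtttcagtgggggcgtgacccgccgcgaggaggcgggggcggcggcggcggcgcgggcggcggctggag
PDGFRA: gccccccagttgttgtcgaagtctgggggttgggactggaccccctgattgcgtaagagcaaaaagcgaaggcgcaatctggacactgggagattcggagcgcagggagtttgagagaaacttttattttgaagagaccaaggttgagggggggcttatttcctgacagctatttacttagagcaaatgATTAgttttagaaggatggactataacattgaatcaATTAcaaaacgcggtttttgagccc
The windows of MET and FGFR2 held no TAAT, and that of PDGFRA held 2. Sites further from the start than these 250 bases were not searched, so a window without a TAAT does not speak to them. A TAAT on either strand was present in 47.4% of all 35116 promoter windows of this length and in 3 of the 8 matched here, those of KLB (6), PDGFRA (2) and HGF (1). The longer palindrome TAATTA, which contains the shorter core, was present in 4.35% of all windows and in 0 of these 8. The MET and FGFR2 windows were rich in GC, with 68.4% and 78.4%, beside a median of 58.0% over all windows. A match is only a description of the letters in this window. FGFR1 was left out of the matching, and no sequence was matched for FGF19.

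The PDGF receptors, which mark stellate cells and fibroblasts in liver, were low in every group, and in the overexpression groups PDGFRA was higher and PDGFRB lower, without passing the test. PDGFRA was at 1.5, 2.05 and 1.48 CPM in the vector control libraries, 1.82, 3.45 and 2.54 CPM in the EMX1-FL libraries and 2.41, 2.49 and 1.66 CPM in the EMX1-X1 libraries. In each overexpression group 2 of 3 libraries were above every control library. The log2 fold change was 0.63 ± 0.33 for EMX1-FL versus vector control (95% interval -0.08 to 1.35, edgeR adjusted p = 0.933), 0.38 ± 0.33 for EMX1-X1 (-0.33 to 1.10) and 0.25 ± 0.32 between them (-0.45 to 0.95). PDGFRA shares 16.1% of its exon bases with the overlapping gene AC058822.1, so reads of the 2 genes are partly not separable. PDGFRB was at 0.899, 1.44 and 1.81 CPM in the vector control, 1.06, 0.632 and 0.785 CPM in EMX1-FL and 0.666, 1.33 and 0.808 CPM in EMX1-X1. Here 2 of 3 libraries of each overexpression group were below every control library, with log2 fold changes of -0.74 ± 0.43 (95% interval -1.68 to 0.20) and -0.57 ± 0.43 (-1.5 to 0.36). LUM and COL3A1, the highest of the 6 fibroblast and stellate markers, were abundant at 706 and 336 TPM. The third, ACTA2, was at 28.7 TPM, and the remaining markers were no higher than ACTA2. Neither PDGF receptor exceeded 1.34 TPM. The 6 fibroblast and stellate markers summed to 877 to 1188 TPM in the vector control, 889 to 1301 TPM in EMX1-FL and 999 to 1235 TPM in EMX1-X1. In the comparisons with the vector control 0 of 6 passed the threshold (2.42% and 2.5% of all genes did). Between EMX1-FL and EMX1-X1, 1 of 6 passed it, beside 1.42% of all genes. This was ACTA2, the smooth muscle actin of activated stellate cells, lower in EMX1-FL by a log2 difference of -1.13 ± 0.27 (edgeR adjusted p = 0.611). ACTA2 was at 11.5 to 20.4 CPM in EMX1-FL, 23.4 to 41.8 CPM in EMX1-X1 and 18.6 to 24.5 CPM in the vector control. COL1A1 differed there by -0.91 ± 0.22 (edgeR adjusted p = 0.611), under the threshold. Against the vector control, 1 of the 6 (DCN) in EMX1-FL and 3 (COL1A1, DCN and ACTA2) in EMX1-X1 had an unadjusted edgeR p under 0.05. This was so for 5.8% and 8.11% of all genes. DCN was lower, by -0.56 in cluster A and -0.74 in B for EMX1-FL and by -0.13 and -0.67 for EMX1-X1. In EMX1-X1, COL1A1 was at 0.24 in A and 0.84 in B, and ACTA2 at 0.25 and 0.62. The 6 mesenchymal markers summed to 754 to 1009 TPM in the vector control, 936 to 1207 TPM in EMX1-FL and 820 to 904 TPM in EMX1-X1, and none of the markers of these lists was at 0 throughout. SNAI2 and ZEB1, transcription factors of mesenchymal transition, passed the threshold in EMX1-FL and SNAI2 in EMX1-X1 (2.42% and 2.5% of all genes did). SNAI2 had log2 fold changes of 2.02 (edgeR adjusted p = 0.0090) and 1.27 (edgeR adjusted p = 0.185), and ZEB1 had 1.22 in EMX1-FL (edgeR adjusted p = 0.837). ZEB1 was higher there by 1.37 in cluster A and 0.27 in cluster B. An unadjusted edgeR p under 0.05 was found for 4 of the 6 in EMX1-FL (FN1, CDH2, ZEB1 and SNAI2). In EMX1-X1 it was found for 3 (FN1, CDH2 and SNAI2), beside 5.8% and 8.11% of all genes. Between EMX1-FL and EMX1-X1 only SNAI2 had it (7.63% of all genes). In clusters A and B, CDH2 in EMX1-FL was at 0.87 and -0.06 and FN1 at 0.71 and 0.38. VIM minus the vector control was at 0.30 in cluster A and -0.33 in cluster B for EMX1-FL, and at 0.02 and -0.54 for EMX1-X1. The epithelial marker CDH1 had an unadjusted edgeR p under 0.05 in EMX1-X1 without passing the threshold. It was higher there by 0.24 in cluster A and 1.16 in cluster B. The part of these markers in the values of the receptors was not tested. In bulk RNA, fewer cells with a transcript and less of it per cell cannot be told apart.

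FGF19 was detected in every library at low counts. It was counted 8, 23 and 32 times in the vector control libraries, 21, 17 and 8 times in the EMX1-FL libraries and 18, 29 and 36 times in the EMX1-X1 libraries. The groups overlapped widely, and the log2 fold changes were -0.40 ± 0.55 for EMX1-FL versus vector control (95% interval -1.59 to 0.79), 0.35 ± 0.53 for EMX1-X1 (-0.80 to 1.5) and -0.75 ± 0.54 between them (-1.93 to 0.43). Without vector control 1, EMX1-X1 versus vector control was at -0.03. KLB, without which FGF19 hardly signals through FGFR4, was counted 8, 21 and 1 times in the vector control, 6, 11 and 5 times in EMX1-FL and 7, 7 and 4 times in EMX1-X1. Without the filter on low counts its log2 fold change was -0.43 in EMX1-FL (edgeR adjusted p = 0.986) and -0.78 in EMX1-X1 (edgeR adjusted p = 0.791). The cells thus held the FGFR4 transcript at a mean of 52.1 TPM and the KLB transcript at 0.205 TPM. Of 9 genes of bile acid synthesis, bile acid transport and their nuclear receptors, 1 was tested, the transporter SLC51A at 1.18 TPM, 3 were at 0 in every library, and the next highest, SLC10A1 and NR0B2, were at 0.118 and 0.0449 TPM.

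**Figure D3:**
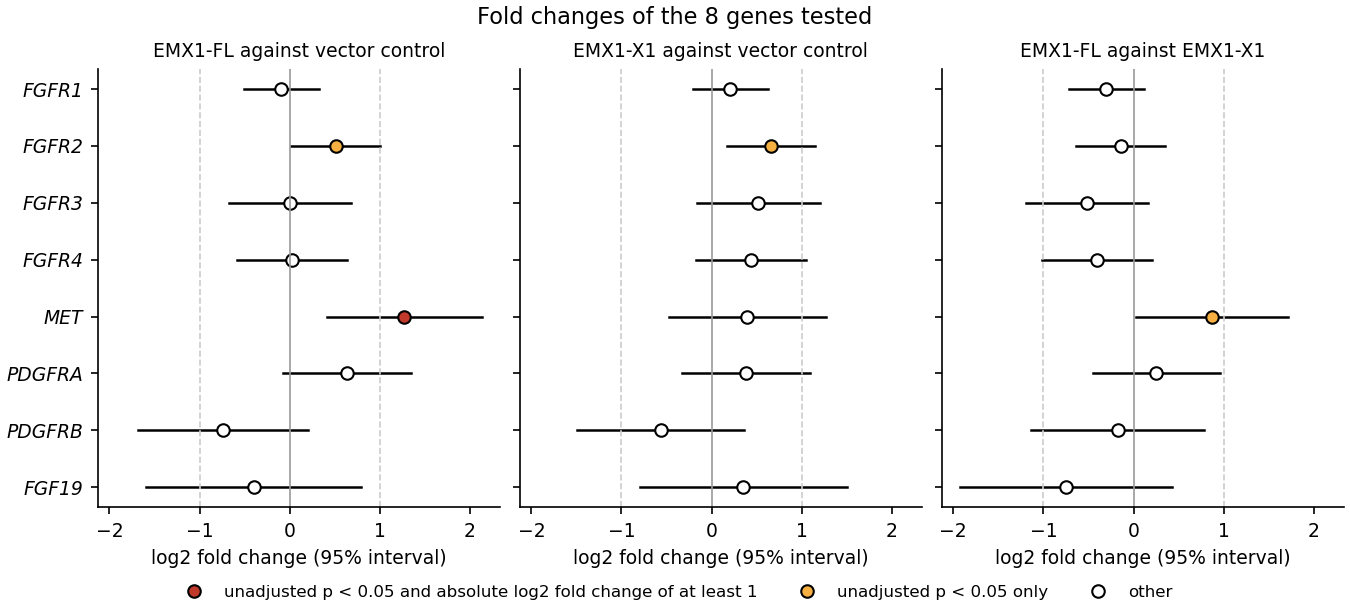
log2 fold change with its 95% interval (edgeR) of the 8 genes tested, in the 3 comparisons. The dashed lines mark log2 fold changes of -1 and 1; MET in EMX1-FL versus vector control, at 1.27, is the 1 point beyond them that also has an unadjusted p under 0.05.

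Several of these genes differed between the library clusters, but not all of them did so within each group. The within-group log2 CPM of cluster B minus A, averaged over the groups, was 0.85 for FGF19, 0.68 for FGFR4 and 0.62 for FGFR3. It was 0.59 for PDGFRB and 0.36 for FGFR1, against 0.05 for FGFR2, -0.38 for PDGFRA and -0.61 for MET. In the vector control, FGFR3 differed little, at 15.97 and 16.19 CPM in cluster A and 16.94 CPM in cluster B. MET was there at 1.33 and 1.00 CPM in A and 1.11 CPM in B, so the clusters were not apart. FGFR4 was at 46.6 to 55.9 CPM in the 5 libraries of cluster A and at 72.7 to 98.8 CPM in the 4 of cluster B, and FGFR1 was at 85.5 to 101 CPM in A and 115 to 135 CPM in B. The GC content of the longest transcript was 63.6% for FGFR4, 62.0% for FGFR3, 58.6% for FGF19, 57.6% for PDGFRB and 51.3% for FGFR1, all higher in cluster B. It was 48.8% for FGFR2, 42.9% for PDGFRA and 42.4% for MET. EMX1-X1 had 2 libraries in cluster B and the other groups 1 each. With the cluster, which was taken from the same counts, as a covariate, MET in EMX1-FL versus vector control was at 1.23 (edgeR adjusted p = 0.0856), and FGFR4 in EMX1-X1 versus vector control was at 0.17, beside 0.44 without it and -0.011 with an offset for GC content. Within the clusters the difference of FGFR4 between EMX1-X1 and vector control was -0.06 in A and 0.41 in B.

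**Figure D4:**
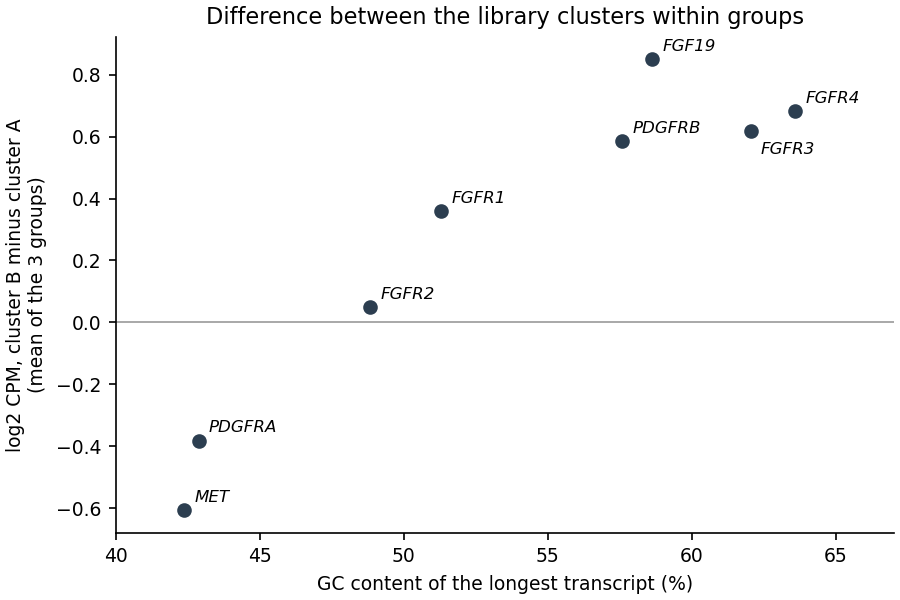
Difference of log2 CPM between cluster B and cluster A within groups, averaged over the 3 groups, against the GC content of the longest transcript, for the 8 genes tested. The genes share the same 9 libraries. MET and PDGFRA, with the lowest GC content, lie below 0 and FGFR3, FGFR4, PDGFRB and FGF19 lie between 0.59 and 0.85.

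SDC2 was the 1 gene among the co-receptors and binding proteins of the FGF receptors that passed the threshold in each comparison with the vector control. This syndecan, a cell-surface heparan sulfate proteoglycan that can present FGFs to their receptors, was at 7.58, 6.76 and 6.35 CPM in the vector control libraries, 13.1, 19.8 and 23.2 CPM in the EMX1-FL libraries and 18.7, 14.5 and 13.7 CPM in the EMX1-X1 libraries. All libraries of both overexpression groups were above all controls. The log2 fold changes were 1.44 ± 0.24 in EMX1-FL (edgeR adjusted p = 0.0627) and 1.18 ± 0.24 in EMX1-X1 (edgeR adjusted p = 0.310), and the 2 groups differed by 0.26 ± 0.23 (95% interval -0.25 to 0.77). With the cluster, taken from the same counts, as a covariate, SDC2 was at 1.41 (edgeR adjusted p = 0.00052) and 1.31 (edgeR adjusted p = 0.0042). A GC offset gave 1.35 (edgeR adjusted p = 0.00096) and 1.24 (edgeR adjusted p = 0.0075). The replicate number as a block gave 1.44 (edgeR adjusted p = 0.335) and 1.18 (edgeR adjusted p = 0.869). SDC1, the most abundant member of this list at 154 TPM, was at 86.4 to 113 CPM in the vector control, 124 to 243 CPM in EMX1-FL and 135 to 220 CPM in EMX1-X1, with log2 fold changes of 0.81 ± 0.27 and 0.95 ± 0.27, under the threshold. Of the 9 co-receptors and binding proteins tested out of 12, 1 passed the threshold in each comparison with the vector control (2.42% and 2.5% of all genes did), and 2 (SDC1 and SDC2) and 5 (also SDC3, HS6ST1 and FGFRL1) had an unadjusted p under 0.05 (5.8% and 8.11% of all genes). Their median log2 fold change was 0.23 in EMX1-FL and 0.53 in EMX1-X1, beside 0.04 and 0.01 over all genes. HS2ST1, a heparan sulfate sulfotransferase, at 65.3 TPM, and FGFRL1, a receptor without a kinase domain, at 50.7 TPM, were the next most abundant. In EMX1-X1, FGFRL1 minus the vector control was at -0.05 in cluster A and 0.69 in cluster B. SDC3 was there at 0.45 and 0.53 and HS6ST1 at 0.34 and 0.66. FGFRL1 was the 1 of the 9 with an unadjusted p under 0.05 between EMX1-FL and EMX1-X1 (7.63% of all genes), at -0.62 ± 0.23 (edgeR adjusted p = 0.611).

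Transcripts of some ligands of these receptors were present in the cells. Of the 21 FGF genes other than FGF19, which include the intracellular FGF11 to FGF14, 9 were tested (FGF11, FGF12 and FGF14 among them). A further 6 were at 0 in every library. Of the 9 tested, 0 passed the threshold in any comparison, where 2.42%, 2.5% and 1.42% of all genes did. FGF20 was the highest at 15.3 TPM, followed by FGF2 at 13.4 TPM and FGF9 at 5.56 TPM, each above FGF19. All 4 PDGF genes were tested, and PDGFC was the highest at 68.2 TPM, followed by PDGFA at 15.9 TPM and PDGFD at 2.05 TPM. PDGFB, whose protein binds both PDGF receptors, was the least abundant of the 4 and was counted 2, 5 and 5 times in the vector control, 5, 6 and 11 times in EMX1-FL and 11, 21 and 20 times in EMX1-X1. It was the 1 of the 4 that passed the threshold of the study in EMX1-X1 versus vector control, where 2.5% of all genes did. Its log2 fold change there was 2.03 ± 0.60 (edgeR adjusted p = 0.484), but with limma on log2(TPM + 1) values PDGFB was at 0.54, under the threshold. In the edgeR fit it was at 0.92 ± 0.64 in EMX1-FL, and EMX1-FL minus EMX1-X1 was -1.12 ± 0.56 (95% interval -2.34 to 0.11).

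**Figure D5:**
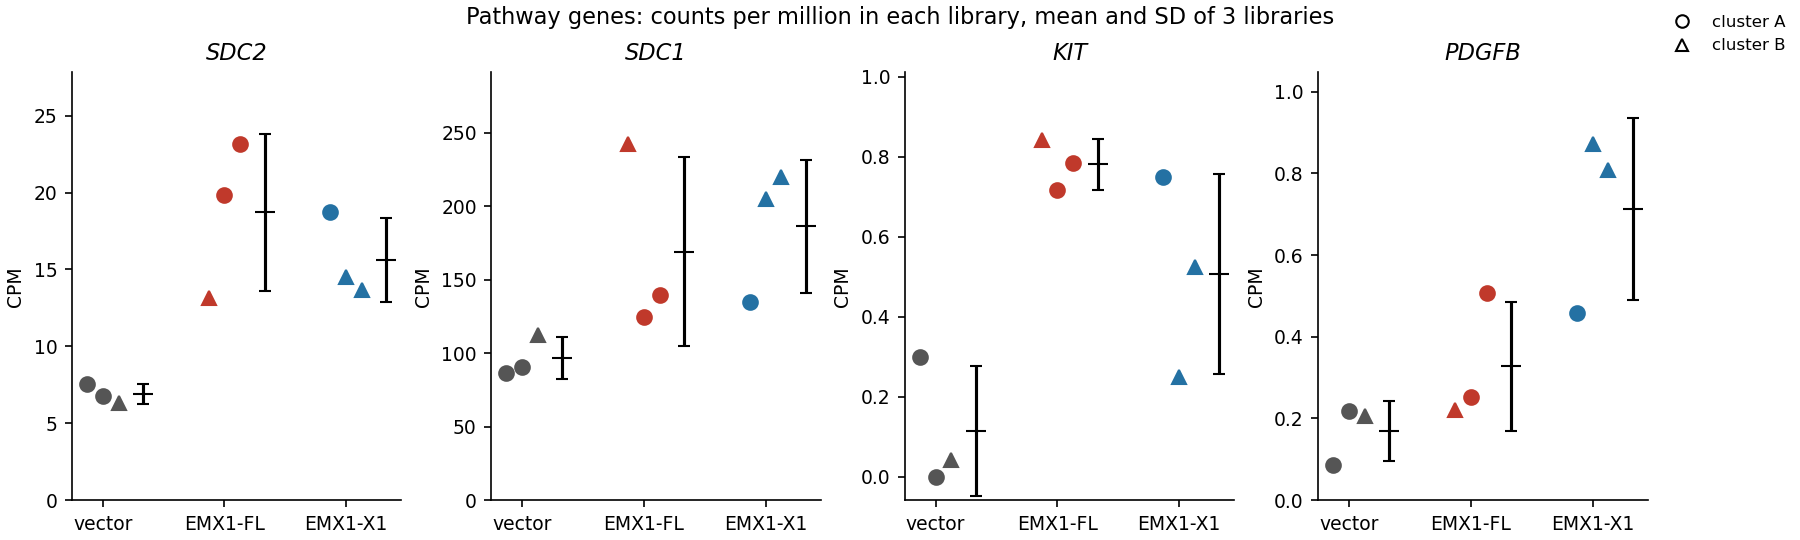
CPM of SDC2, SDC1, KIT and PDGFB in each library by group, with circles for cluster A and triangles for cluster B; the bar beside each group is the mean ± SD of 3 libraries. SDC2 is at 6.35 to 7.58 CPM in the vector control and at 13.1 CPM or more in every overexpression library.

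Of the signal carriers and feedback genes of the receptors, 0 passed the threshold of the study in any comparison. Of all genes tested 2.42%, 2.5% and 1.42% did in the 3 comparisons. All 12 adaptors and effectors were tested, led by GRB2, the adaptor that recruits SOS to the receptors, at 267 TPM, CRKL at 156 TPM and the phosphatase PTPN11 (SHP2) at 138 TPM. All 11 feedback genes that FGF-ERK signaling induces were tested, led by SPRY2, an inhibitor of receptor signaling, at 193 TPM, and SPRED1 and SPRED2 at 169 and 124 TPM. SPRY2 was lower in both overexpression groups, at 187 to 237 CPM in the vector control, 122 to 165 CPM in EMX1-FL and 142 to 162 CPM in EMX1-X1. Neither overexpression group overlapped the vector control, as was the case for 10.5% and 14.7% of all genes tested. EMX1-FL and EMX1-X1 overlapped. The log2 fold change of SPRY2 was -0.53 ± 0.17 in EMX1-FL (edgeR adjusted p = 0.524) and -0.48 ± 0.17 in EMX1-X1 (edgeR adjusted p = 0.549), below the fold threshold. IL17RD, another inhibitor of FGF signaling, lay the other way, at 21.3 to 25.5 CPM in the vector control, 28.8 to 35.6 CPM in EMX1-FL and 26.0 to 31.4 CPM in EMX1-X1, with log2 fold changes of 0.41 ± 0.18 (edgeR adjusted p = 0.834) and 0.29 ± 0.18 (edgeR adjusted p = 0.660). DUSP6, a phosphatase of ERK, was at 52.1 to 59.2 CPM in the vector control and 62.9 to 66.2 CPM in EMX1-X1, a log2 fold change of 0.24 ± 0.16 (edgeR adjusted p = 0.687). EMX1-FL was similar: within clusters A and B the log2 CPM of DUSP6 minus that of the vector control was 0.23 and 0.28 there, beside 0.31 and 0.12 in EMX1-X1. At an unadjusted p under 0.05 there were 2 (SPRY2 and IL17RD), 1 (SPRY2) and 0 of the 11 feedback genes and 0, 1 (SOS1) and 2 (SOS1 and GRB2) of the 12 adaptors and effectors in the 3 comparisons, beside 5.8%, 8.11% and 7.63% of all genes. The median of the feedback genes was -0.05 and -0.11.

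Of 15 other targets of the kinase inhibitors used in HCC, 11 were tested. Of these 1, KIT, passed the threshold of the study in each comparison with the vector control, where 2.42% and 2.5% of all genes did. KIT, the stem cell factor receptor, was counted 7, 0 and 1 times in the vector control, 19, 17 and 17 times in EMX1-FL and 18, 6 and 13 times in EMX1-X1. Every EMX1-FL library was above every control library, and EMX1-X1 2 was below vector control 1. The log2 fold change was 2.73 ± 0.83 in EMX1-FL (edgeR adjusted p = 0.457) and 2.11 ± 0.85 in EMX1-X1 (edgeR adjusted p = 0.575), fitted against a group with a library at 0, so its size depends on the prior count. With limma on log2(TPM + 1) values KIT was at 0.51 in EMX1-FL and 0.32 in EMX1-X1, both under the threshold. Without vector control 1 the value in EMX1-FL was 4.89, and in EMX1-X1 KIT was no longer past the threshold without vector control 2 or 3 or EMX1-X1 1 or 3. The more abundant DDR2, a collagen receptor, at 174 TPM, and AXL, the receptor of GAS6, at 53.5 TPM did not pass it. AXL was at 53.9 to 71.2 CPM in EMX1-FL and 75.2 to 98.4 CPM in EMX1-X1, a log2 difference of -0.58 ± 0.18 (edgeR adjusted p = 0.611). Its groups did not overlap there, as for 8.38% of all genes. AXL and its relative TYRO3 were the 2 of the 11 with an unadjusted edgeR p under 0.05 in this comparison, beside 7.63% of all genes. TYRO3 was lower in EMX1-FL by -0.32 in cluster A and -0.38 in cluster B.

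FGF19 lies on chromosome 11 among genes that are often amplified with it in HCC, and 7 of 10 of these neighbours were tested. CCND1, which encodes cyclin D1, was at 183 TPM, CTTN at 72.3 TPM and PPFIA1 at 34.9 TPM, against 1.80 TPM of FGF19. None of these passed the threshold, while 2 of the 7 tested, MYEOV and FADD, did in EMX1-X1 versus vector control, where 2.5% of all genes did. MYEOV was at 7.90 to 10.6 CPM in the vector control, 9.61 to 11.1 CPM in EMX1-FL and 14.3 to 23.9 CPM in EMX1-X1, with a log2 fold change of 1.03 ± 0.22 (edgeR adjusted p = 0.310), and 0.77 after an offset for GC content. It was under the threshold with that offset, with the cluster as a covariate (0.90), and without vector control 2 (0.89) or EMX1-X1 3 (0.85). Between EMX1-FL and EMX1-X1 the log2 difference of MYEOV was -0.94 ± 0.22 (edgeR adjusted p = 0.611), with groups that did not overlap, as for 8.38% of all genes. FADD was at 4.01 to 8.04 CPM in the vector control and 6.66 to 14.1 CPM in EMX1-X1, with a log2 fold change of 1.03 ± 0.43 (edgeR adjusted p = 0.584) and groups that overlapped. AP000879.1 covers 54.9% of its exon bases. With the cluster as a covariate the value of FADD was 0.65, and it was also under the threshold with the GC offset (0.72), with the replicate block (1.06, by its p), and without vector control 1 (0.93) or 2 (0.82) or EMX1-X1 2 (0.87) or 3 (0.86).

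The genes whose log2 CPM followed MET most closely over the 9 libraries were FBXL13 (Pearson r = 0.97), QPCT (0.96) and IL1R1 (0.96), and those closest to FGFR2 were CTHRC1 (0.95), ACSL1 (0.94) and KLF4 (0.92). These are the highest of 18574 values each, over libraries that share the groups and the clusters, and they are descriptions of likeness only.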

How the data were processed

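The SNU-398 RNA-seq libraries were grouped by their labels into vector control, EMX1-FL and EMX1-X1. Raw counts of read pairs for each gene name, and log2(TPM + 1) values on a log2 scale, were deposited by the authors. The submitters' processing notes name bcl2fastq 2.1.7, fastp, STAR, featureCounts 2.0.6 and hg38, whereas the header of the count table names featureCounts 2.0.1 with Ensembl release 99 of GRCh38, and the methods of the study name RSEM for counting. By default featureCounts leaves out a read pair that overlaps several genes, whereas RSEM shares it between them, so what an overlap does to a count is uncertain, and a strand setting is not given in the sources used here. The log2 values were recomputed from the counts and gene lengths with a largest difference of 4.98e-06, and TPM in the text were obtained from them.

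Of 60642 names, 18574 passed filterByExpr of edgeR 4.0.16 (R 4.3.3), and all 9 libraries were fitted with TMM factors and group as the only term in its quasi-likelihood test, adjusted by Benjamini-Hochberg over the genes tested. CPM use the TMM-normalized library sizes. Total counts were 21562703 to 25197970 per library, and the counts behind a gene set its precision. The smallest p of the two-sided exact permutation test of 3 libraries against 3 is 0.1. The model was tested on simulated data.

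The 10 genes and all lists were chosen with earlier results of these data known. Named are the 10 genes, EMX1, the members of each pathway list past the threshold or at an adjusted p under 0.05, the 3 members of highest mean TPM in each list, and the 3 genes of highest Pearson r with MET and with FGFR2. One gene that this rule names is not reported here. SDC3, HS6ST1, IL17RD, DUSP6, SOS1, TYRO3 and the marker genes were named, and the differences of SDC1, SPRY2 and AXL given, after their values were seen. GC content is that of the longest GENCODE 29 transcript (95.6% of tested genes had one), and promoters are from RefSeq, GRCh38.p14, with 8 of the 10 genes matched. FGFR1 was left out of this matching. As alternatives, the normalization was changed (RLE factors, upper-quartile factors, none beyond library size), as were the filter (none, or at least 10 counts in every library) and the tool (DESeq2 1.42.0, or limma 3.58.1 with a pseudocount of 1 or 0.1 added to TPM). Further fits took only the 6 libraries of a comparison, added the replicate number as a block, the library cluster as a covariate or a GC offset, or left out 1 library at a time. Plots were drawn with matplotlib 3.10.9.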

Additional observations from a re-analysis of the deposited data

How the results depend on the processing

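Of 501 alternative values for the 8 genes tested, 476 kept their direction and their side of the threshold, 22 reversed, 1 fell under the threshold and 2 passed it. MET in EMX1-FL versus vector control ranged from 1.10 to 1.45 with each library left out and its adjusted p from 0.0856 to 1.00 over all 21 alternatives; limma on log2(TPM + 1), which gave 0.64, left 0 of the 8 genes past the threshold. With each library left out, 0 to 1 of the 8 genes passed it in EMX1-FL versus EMX1-X1, where MET did so without EMX1-FL 1 (1.05) or EMX1-X1 1 (1.40). FGFR2 ranged from 0.33 to 0.70 in EMX1-FL and from 0.52 to 0.84 in EMX1-X1. The low counts of MET, PDGFRA, PDGFRB, FGF19, KLB and HGF limit what could be detected for them, and FGF19 was dropped by the filter of at least 10 counts.

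The cause of the reversals was not tested. FGFR3 in EMX1-FL versus vector control was at -0.013 with RLE factors or DESeq2, -0.0080 with no filter, -0.0038 with at least 10 counts, -0.062 with the cluster as a covariate, -0.067 with the GC offset, -0.011 with only the 6 libraries compared, and from -0.32 to 0.22 with each library left out. FGFR4 in the same comparison was at -0.0054 with the cluster, -0.019 with the GC offset and from -0.26 to 0.20 with each library left out, and in EMX1-X1 versus vector control it was at -0.011 with the GC offset. Leaving out each library gave -0.032 to 0.74 for FGF19 and -0.13 to 0.64 for MET in EMX1-X1 versus vector control, -0.040 to 0.18 for MYEOV in EMX1-FL versus vector control, and -0.0097 to 0.46 for PDGFRA in EMX1-FL versus EMX1-X1. PDGFRB in the latter was at 0.038 with the cluster, 0.077 with the GC offset and from -0.40 to 0.16 with each library left out.

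For the pathway genes past the threshold and their other comparisons, 286 of 309 alternative values kept their direction and side, and FADD was under the threshold with 7 of 21 alternatives, KIT with 5 of 20 and MYEOV with 4 of 21 in EMX1-X1 versus vector control. With limma on log2(TPM + 1), PDGFB in that comparison (0.54) and KIT in EMX1-FL versus vector control (0.51) were also under it. Libraries with the same replicate number did not deviate together (mean r = -0.13 over 9 pairs, against 0.06 over 18 pairs of different numbers). With the replicate number as a block, 1, 0 and 0 of the 8 genes passed the threshold in the 3 comparisons, as without it, and MET was at 1.31 in EMX1-FL versus vector control and 0.96 in EMX1-FL versus EMX1-X1.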
